A study of Caenorhabditis elegans with 2 samples.

Results

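Young adult worms of a Caenorhabditis elegans strain with a TY1, EGFP and 3xFLAG tag inserted by CRISPR into its own egrh-3 gene were used for chromatin immunoprecipitation with an antibody against GFP and sequencing (ChIP-seq). EGRH-3 belongs to the early growth response (EGR) proteins, which carry C2H2 zinc fingers. The series held 1 group of 2 biological replicates, each of whole animals aged 65 h from cultures synchronised by starving first-stage larvae. Whole animals pool all tissues and the sex was not recorded. With 1 group there was no comparison between conditions, and no region was tested. Described here are the peak summits inside protein-coding exons, outside the large col family of cuticle collagen genes. They were taken from the authors' conservative list, in which a summit is the base of highest enrichment in a peak, and were placed on the ce11 (WBcel235) gene annotation. A summit was kept if it lay in a coding exon of a gene not named col and not between the ends of any col gene.

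There were 532 such summits among 2218 peaks. Of these, 511 were nuclear, which is 23.3% of 2194 nuclear peaks (exact 95% interval 21.5 to 25.1), and 21 lay on mitochondrial DNA and are described last. The number differed between the replicates' own lists, where the same rule found 836 nuclear coding exon summits for replicate 1 (29.3% of its nuclear peaks) and 234 for replicate 2 (16.3%). A further 131 nuclear summits lay in coding exons inside col genes and were left out. Coding exons outside col genes made up 24.5 Mb, or 24.5% of the nuclear genome, so the coding exons held 20.8 summits per Mb and all other nuclear bases 22.2 per Mb. The summits fell in 414 of 19815 protein-coding genes (2.09%), of which 343 had 1 summit, 56 had 2 and 15 had 3 or more. No summit lay in coding exons of more than 1 gene. Depth is unknown because the files are peak lists without read counts, and peaks of worms without the tag were not analysed here. Enrichment of the tagged protein therefore cannot be told apart from enrichment that any immunoprecipitated chromatin would show. Intervals below are exact 95% intervals for counting error over summits or genes, which are not replicates.

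Proteins of the EGR family bind DNA through a set of C2H2 zinc fingers that read a short GC-rich element, and they are known mostly as regulators acting at promoters and enhancers. A coding exon differs from such sites because its sequence is set by the amino acids it encodes. The codons of alanine, glycine and proline begin with pairs of G and C bases, so exons for proteins built from these residues, such as collagens, cuticlins and glycine-rich secreted proteins, are rich in GC in a genome that is otherwise rich in AT. A protein stretch that uses few kinds of residue is called low-complexity, and many such stretches belong to cuticle and eggshell proteins, RNA-binding proteins and chromatin proteins.

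The coding sequence at 12 of these summits is shown because it carries the features described below. In most of them these are runs of a few codons that vary between synonymous forms. The set-26 stretch is more mixed, with glutamate at 7 of 25 codons. Each run is 25 codons centred on the summit codon, in frame and 5′ to 3′ on the coding strand of ce11, and capitals mark the codons of its most frequent residue. The residue is glycine in grl-25 and hrpa-1, alanine in F47B8.18, ram-2, ZK84.1, rla-2, grd-1, his-24 and clec-122, proline in cyk-1, serine in spch-1 and glutamate in set-26.
grl-25, chrIII:8962653-8962727, plus strand: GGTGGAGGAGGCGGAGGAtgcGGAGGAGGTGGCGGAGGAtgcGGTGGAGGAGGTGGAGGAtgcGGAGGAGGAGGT
F47B8.18, chrV:14325027-14325101, minus strand: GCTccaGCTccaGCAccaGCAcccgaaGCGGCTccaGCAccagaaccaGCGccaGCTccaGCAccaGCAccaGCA
ram-2, chrII:11015869-11015943, minus strand: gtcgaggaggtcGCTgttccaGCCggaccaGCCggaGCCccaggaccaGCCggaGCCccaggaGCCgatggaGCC
ZK84.1, chrII:6022643-6022717, plus strand: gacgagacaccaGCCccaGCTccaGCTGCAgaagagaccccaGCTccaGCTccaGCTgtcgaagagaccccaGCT
hrpa-1, chrIV:3337350-3337424, minus strand: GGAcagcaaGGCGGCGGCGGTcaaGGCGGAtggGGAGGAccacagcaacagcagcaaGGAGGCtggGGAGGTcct
cyk-1, chrIII:7026034-7026108, minus strand: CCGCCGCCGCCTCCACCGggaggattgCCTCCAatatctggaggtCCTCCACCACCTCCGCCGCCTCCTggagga
rla-2, chrIV:13369598-13369672, minus strand: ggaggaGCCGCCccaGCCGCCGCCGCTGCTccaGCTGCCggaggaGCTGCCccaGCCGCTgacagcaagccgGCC
grd-1, chrX:11114575-11114649, plus strand: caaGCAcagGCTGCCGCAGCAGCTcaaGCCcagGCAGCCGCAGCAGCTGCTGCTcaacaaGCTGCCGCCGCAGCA
spch-1, chrIV:10111003-10111077, minus strand: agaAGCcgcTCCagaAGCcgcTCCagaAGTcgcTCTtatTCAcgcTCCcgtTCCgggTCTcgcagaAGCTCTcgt
set-26, chrIV:16650423-16650497, minus strand: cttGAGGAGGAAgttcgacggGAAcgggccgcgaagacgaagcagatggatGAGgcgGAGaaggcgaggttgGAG
his-24, chrX:14490596-14490670, plus strand: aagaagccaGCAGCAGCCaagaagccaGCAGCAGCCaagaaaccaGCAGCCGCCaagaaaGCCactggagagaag
clec-122, chrII:3107013-3107087, plus strand: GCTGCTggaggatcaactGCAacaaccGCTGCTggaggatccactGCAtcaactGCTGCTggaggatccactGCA

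The summits lay in GC-rich coding sequence. Their median GC content within 50 bp was 61.4% (interval of the median 60.4 to 61.4), against 40.6% at 490877 positions taken every 50 bp through all coding exons outside col genes, called coding positions below. A GC content of 50% or more was found at 96.5% of the summits and 9.92% of coding positions, and one of 60% or more at 59.7% of the summits and 0.574% of coding positions. The density of summits went up in each step of GC content, starting from 0.0884 per Mb of coding sequence under 40% GC (1 summit) and passing 28.6 per Mb at 50 to 55% and 1648 per Mb at 60 to 65%. It reached 6885 per Mb at 70% or more, where 21 summits lay in sequence sampled by 61 coding positions. Counted by coding positions, 82.0% of those at 70% GC or more lay inside a conservative peak interval, as did 30.2% of those at 60 to 65% and 0.0663% of those under 40%. The high GC content was local, with a mean of 62.0 ± 9.82% over the 21 bp at the summit, 45.8 ± 15.2% at 200 bp upstream, 44.4 ± 15.5% at 200 bp downstream and 40.03 ± 14.6% at 600 bp downstream (SD, n = 511).

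**Figure D1:**
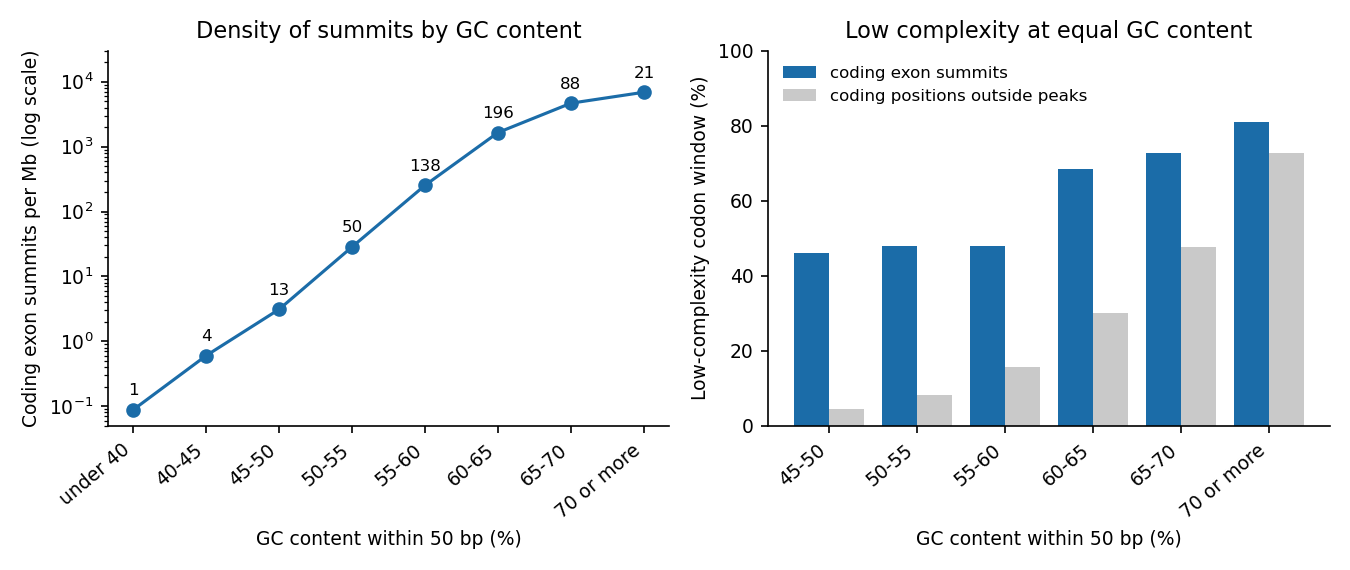
Left, coding exon summits per Mb of coding sequence (log scale) by GC content within 50 bp, with the number of summits above each point. Right, the share of coding exon summits (blue) and of coding positions outside peaks (grey) in a low-complexity codon window, by GC content. Density goes up from 0.0884 to 6885 per Mb, and the blue bar is higher than the grey bar in each of the 6 bins drawn.

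**Figure D2:**
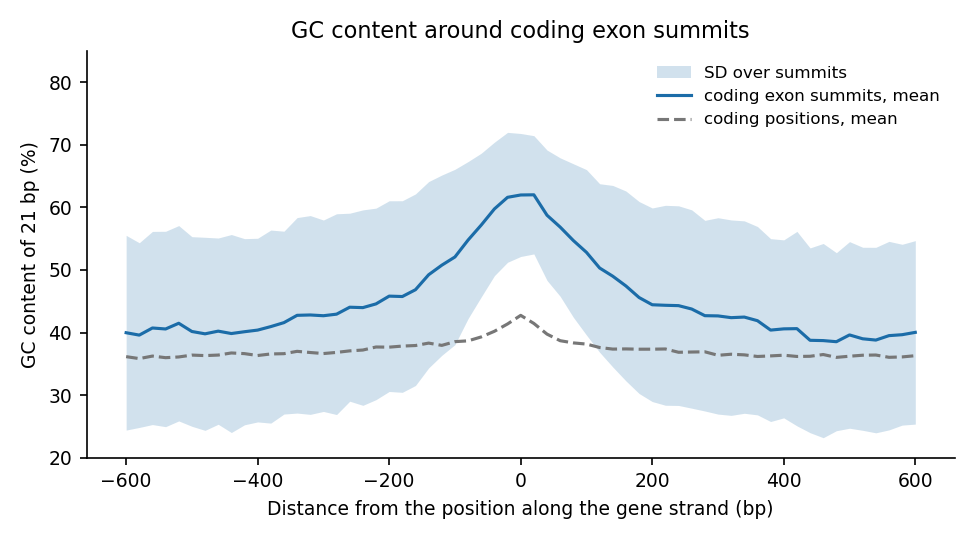
Mean GC content of 21 bp windows by distance from 511 coding exon summits (blue line, band is 1 SD over summits) and from 5061 coding positions (dashed grey line), upstream to the left. The summit mean is 62.0% at the centre 39.98% at 600 bp upstream and 40.03% at 600 bp downstream.

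By gene, 348 of 1259 genes with at least 1 coding position at 60% GC or more held a summit (27.6%, 25.2 to 30.2), while 66 of the other 18556 genes did (0.356%, 0.275 to 0.452). Positions were sampled every 50 bp, so a short GC-rich stretch can be missed. The strongest summit of those 66 genes, in the constitutive Hsp70 chaperone gene hsp-1 with a signal of 315, itself had 62.4% GC within 50 bp, while the second summit of hsp-1 had 81.0 and 46.5% GC. Signal is the authors' own deposited measure of peak strength against control, with no stated scaling, and it describes peaks within a list. The GC-poorest summits were weak ones. Y39E4A.1 had 31.7% GC and a signal of 16.9, and the 4 summits at 40 to 45% GC were in T13F3.8, F33E11.2, faah-6 (a fatty acid amide hydrolase family gene) and vit-2 (yolk protein), with signals between 10.6 and 99.2.

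Most summits encoded low-complexity protein. The 31 codons centred on the summit used so few kinds of residue that their Shannon entropy was under 3 bits at 312 of 511 summits (61.1%, 56.7 to 65.3), beside 3.86% of coding positions. Among coding positions outside every peak, weighted to the same GC content within 50 bp as the summits, the share was 28.8%. These GC-weighted positions were GC-poorer over a wider window, with a median of 54.2% within 100 bp against 58.7% at the summits. Comparisons with them therefore equalised GC content within 50 bp only. Within bins of equal GC content the shares were 47.8% of summits and 15.6% of outside positions at 55 to 60% GC, 68.4% and 30.1% at 60 to 65%, and 72.7% and 47.7% at 65 to 70%. At 70% GC or more they were 81.0% and 72.7%, with 11 outside positions. A run of 5 or more of the same residue was present at 111 summits (21.7%), against 1.19% of coding positions and 10.2% of the GC-weighted positions. The lowest entropy, 0.548 bits, was at a summit in Y39B6A.1, where serine took 28 of 31 codons and formed a run of 27, and grl-23, grl-25 and F55A12.18 followed with 0.555, 0.637 and 0.835 bits from glycine.

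With ties counted as stated below, alanine led more summits than any other residue, and more than in coding sequence equally GC-rich within 50 bp. The shares led by glycine and proline were close to those of such sequence, although mean proline content was higher. A tie went to the residue first in the alphabet of one-letter codes, at summits and coding positions alike. Alanine therefore took ties with glycine and proline, as in F47B8.18, where alanine and proline each held 45.2% of residues. How far ties raised the alanine share was not tested. Alanine was the most frequent of the 31 residues at 171 summits (33.5%, 29.4 to 37.7), beside 9.89% of coding positions and 24.3% of GC-weighted positions outside peaks. Glycine led at 99 summits (19.4%, 16.03 to 23.1), beside 5.43% and 19.3%, and proline at 84 (16.4%, 13.3 to 19.9), beside 3.57% and 17.2%. Glutamate led at 40 summits (7.83%, 5.65 to 10.5), which is below the 11.0% of all coding positions and above the 4.36% of GC-weighted ones. Lysine and glutamine led at 3.52% and 3.72% of summits and at 1.06% and 1.41% of GC-weighted positions. Mean alanine content was 17.4 ± 13.4% of residues at the summits (SD, n = 511), 6.34 ± 5.11% at coding positions and 11.3% at GC-weighted positions. Mean proline content was 14.1 ± 13.3%, 4.86 ± 5.09% and 11.3% in the same order, and mean glycine content 13.1 ± 17.2%, 5.28 ± 5.16% and 11.9%. At the level of codons, GCT took 7.24% of all codons around summits, 2.24% at coding positions and 3.16% at GC-weighted ones. GCA took 3.27%, 2.04% and 1.87%, while the other alanine codons, GCC and GCG, were within 1.15 times their GC-weighted shares. The most used codons around summits were CCA for proline (8.14%, against 5.12% in GC-weighted sequence) and GGA for glycine (7.57%, against 5.35%).

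**Figure D3:**
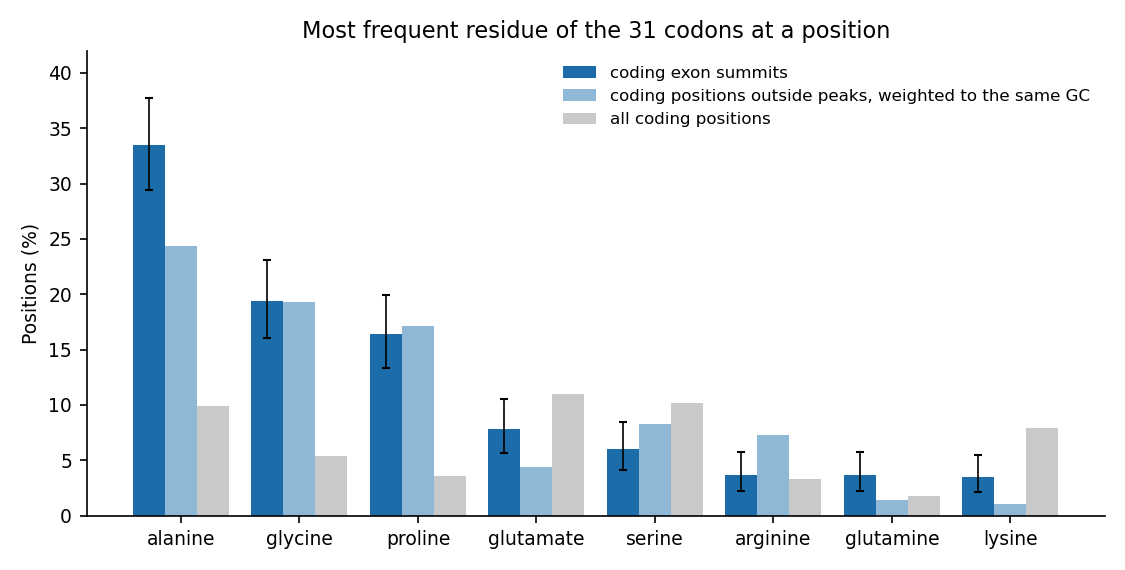
Share of positions at which each residue was the most frequent of 31 codons, for 511 coding exon summits (dark blue, bars are exact 95% intervals), coding positions outside peaks weighted to the same GC content (light blue) and all coding positions (grey). Alanine is 33.5% at summits against 24.3% in the GC-weighted positions, while the glycine and proline intervals include the GC-weighted share. Ties went to the residue first in the alphabet of one-letter codes.

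Short sequence patterns were searched as letters on both strands within 50 bp, so a match need not be in frame or on the coding strand. GCTCCA, an alanine and a proline codon when read in frame, was present at 207 summits (40.5%, 36.2 to 44.9), 8.67% of coding positions and 21.7% of GC-weighted positions. AGCAGC, which overlaps runs of GCA, CAG and GCT repeats on either strand, was present at 177 summits (34.6%, 30.5 to 38.9), 5.73% of coding positions and 13.8% of GC-weighted ones. GCCGCC was at 27.4% of summits, 2.65% of coding positions and 28.8% of GC-weighted ones. The letters GTGGGCG, the core of the EGR element, were at 6 summits (1.17%, 0.432 to 2.54), 0.400% of coding positions and 3.07% of GC-weighted ones, and GTGGGTG was at 4 summits (0.783%), 0.411% and 2.38%. Of the longer forms, GCGTGGGCG, which contains the first of these, was at 0 summits (upper limit 0.719%), 0.0574% of coding positions and 0.602% of GC-weighted ones. GCGGGGGCG was at 3 summits (0.587%, 0.121 to 1.71), 0.0198% and 0.379%. These counts describe letters in a window and say nothing of which protein was bound.

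Regular repeats of coding sequence were rarer than low complexity. A tandem repeat, with a period between 3 and 150 bp at which at least 70% of bases matched within 150 bp of the summit, was found at 11 summits (2.15%, 1.08 to 3.82), beside 0.208% of coding positions and 0.739% of GC-weighted ones. The strongest was the summit in grl-25 with a period of 135 bp and 70.5% matching bases. ZK84.1, annotated by RefSeq as flocculation protein FLO11, had summits of 1081 and 552 in the 2081 bp last exon, both with a period of 30 bp and matches of 80.1% and 78.2%. The repeat is visible in its printed sequence, where alternating alanine and proline codons return after a short stretch of acidic codons. The next were a second summit in Y47D7A.15, a glycine-rich secreted protein (signal 429, period 126 bp, match 94.9%), K06A9.1 (275, 120 bp, 93.4%), in an exon of 4527 bp, and W03G1.5 (145, 147 bp, 97.4%). The others were E02H4.8, clec-122, glh-2 and a pair in clx-1. In clec-122 the period was 81 bp and the 51 bases at the summit occurred 7 times in the genome, and at the weakest clx-1 summit, with a signal of 18.7, they occurred 10 times. In all, 12 summits (2.35%) had 51 bases present more than once in the nuclear genome, beside 3.28% of coding positions.

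A Gly-X-Y stretch of at least 8 triplets, the collagen triple helix pattern, was at 10 summits (1.96%, 0.942 to 3.57), beside 0.0715% of coding positions and 2.07% of GC-weighted ones. The strongest were in sqt-3 (1195), H17B01.2 (369), dpy-13 (366), idpa-1 (320) and dpy-4 (299), and the pattern also met proteins that are not collagens, such as the La homolog ssb-1 and the RNA-binding nono-1. Arg-Gly-Gly, a tripeptide common in RNA-binding proteins, occurred at least 2 times in the window at 18 summits (3.52%), beside 0.0646% of coding positions and 3.09% of GC-weighted ones. No summit lay in a C2H2 zinc finger pattern (0 of 511, upper limit 0.719%), beside 0.175% of coding positions and 0.0941% of GC-weighted ones. The upper limit is above both shares, so 0 does not show a lower share.

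Many of the 15 strongest summits were in genes of secreted and cuticle proteins. The strongest, in exon 2 of the 6 coding exons of grl-25, a ground-like gene of the hedgehog-related group, had a signal of 1655, with 1004 in replicate 1 and 657 in replicate 2. Next came F47B8.18 (1331, with 828 and 515), a single-exon gene that RefSeq names skin secretory protein xP2-like, and ram-2 (1312, with 783 and 541), a cuticle collagen needed for the shape of male tail rays. sqt-3, the cuticle collagen 1 named for its squat mutants, had 1195, with 761 and 439. In each of these 4 genes the replicate 1 signal was the higher one. F55A12.18 (1168) and W09G12.6 (807) are glycine-rich, F47B8.14 (850) is a neighbour of F47B8.18 with the same product name, cut-2 (849) is a cuticlin, epic-2 (831) an epicuticlin and grl-23 (779) another ground-like gene. The others were ZK84.1 (1081) and 4 genes of proteins inside the cell: hrpa-1 (1020), the hnRNP A1 homolog, in its glycine-rich last exon, tfg-1 (1006), which acts at endoplasmic reticulum exit sites, cyk-1 (807), a formin that nucleates actin and is shown in its proline-rich stretch, and rla-1 (783), an acidic ribosomal stalk protein. All 15 were overlapped by peaks of both replicates' own lists, and their GC content ran from 64.4% in cut-2 to 76.2% in F55A12.18.

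Cuticle and extracellular families held some of the strongest summits, though a small part of their number. The lists below were drawn up by gene name with earlier results of these data known, so a share above 2.09% is a description and not independent support. Counts by replicate list below are to be read against all genes, of which 647 (3.27%) had a coding exon summit by the longer replicate 1 list and 198 (0.999%) by the replicate 2 list. Of 86 hedgehog-related and patched-related genes, 13 had a summit (15.1%, 8.30 to 24.5) and they held 16 summits with a median signal of 203. The second gene of this list by signal was grl-23 (501 in replicate 1 and 283 in replicate 2), and grd-1 followed with 517, from 380 and 135, at the alanine codon run printed above. Of 19 collagens named for body shape, 5 had a summit (26.3%, 9.15 to 51.2): sqt-3, dpy-13, dpy-4, lon-3 and dpy-17, with strongest signals of 1195, 366, 299, 161 and 135. The basement membrane collagen let-2 had 160. Of 38 zona pellucida domain genes, cut-2 (849) and cut-1 (239) had a summit (5.26%, 0.644 to 17.7), an interval that includes the 2.09% of all genes. By replicate list, 11 hedgehog-related genes had a coding exon summit in replicate 1 and 5 in replicate 2, and the body-shape collagens 11 and 3. These families were GC-rich. The share of coding positions at 60% GC or more was 2.43% in the hedgehog-related and patched-related list and 12.7% in the body-shape collagens. It was 1.47% in the zona pellucida list, beside 0.574% of all coding positions.

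RNA-binding and germ granule genes formed another group. Of 41 RNA helicase and splicing genes, 7 had a summit (17.1%, 7.15 to 32.1), led by ddx-17 (364, with 307 and 70.2) and the Sm protein gene snr-2 (251, with 209 and 48.5), and the SR protein genes rsp-1, rsp-8 and rsp-2 were among the rest. By replicate list their number was 8 for replicate 1 and 1 for replicate 2, and outside promoter windows it was 3. Of 12 P granule genes, pgl-1 (165), pgl-3 (99.1) and glh-2 (69.5) had one, and by replicate list the number was 3 for replicate 1 and 1 for replicate 2. Nucleoporins had 4 of 26, with npp-16 (157) and npp-4 (150) the strongest, and prion-like pqn and abu genes 8 of 70 (11.4%, 5.07 to 21.3). In this list pqn-75 had 627 at a proline run, with 425 and 207, and pqn-41 had 360 at an alanine-rich stretch, with 275 and 93.5. By replicate list, nucleoporins had 5 genes for replicate 1 and 1 for replicate 2, with 2 outside promoter windows, and pqn and abu genes 10 and 6. The share of coding positions at 60% GC or more was 2.65% in the helicase and splicing list and 1.93% in the pqn and abu list. It was 0.713% in the P granule genes and 0.791% in the nucleoporins, beside 0.574% of all coding positions.

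Genes of the ribosome, chromatin and muscle were represented by a minority of each family. Of 78 ribosomal protein genes 7 had a summit (8.97%, 3.68 to 17.6), with signals between 50.8 in rpl-20 and 217 in rps-2, and rpl-7A second at 200. The 3 stalk genes, rla-0, rla-1 and rla-2, and the related C37A2.7 were outside that list, had signals of 303, 783, 402 and 201, and were singled out after their values were seen. Of 81 histone genes 8 had a summit (9.88%, 4.36 to 18.5). The strongest were in the linker histones his-24 (425, with 347 and 82.1), where lysine and proline codons alternate with alanine as printed above, and hil-4 (246, with 202 and 50.6), and the core histone genes his-59, his-32, his-61 and his-6 had 81.8 to 114.5. Of 35 muscle genes 6 had a summit (17.1%, 6.56 to 33.6): the troponin T genes tnt-2 (244) and tnt-4 (160), the paramyosin gene unc-15 (160), the myosin heavy chain gene unc-54 (126), the troponin I gene tni-3 (82.9 in replicate 1 and 33.8 in replicate 2) and act-4 (74.3), an actin. Of 38 translation factor genes eef-1B.2 (183), eif-4A3 (112) and eef-1G (89.3) had one (7.89%, 1.66 to 21.4). Of 59 chaperone genes hsp-1 (315) and dnj-19 (86.2) had one (3.39%, 0.413 to 11.7). Both intervals include the 2.09% of all genes. The yolk protein genes vit-6 (132) and vit-2 (121.7) were 2 of 6. By replicate list, replicate 1 had 6 ribosomal, 10 histone, 9 muscle and 5 translation factor genes and replicate 2 had 3, 4, 2 and 1, beside the 647 and 198 of all genes. Many of these summits also lay in promoter windows, since with such windows left out the counts were 3 ribosomal, 2 histone, 1 translation factor and 1 chaperone gene, and 307 of all genes (1.55%). Coding positions at 60% GC or more made up 3.41% in ribosomal, 2.39% in histone, 0.912% in muscle and 1.13% in translation factor genes. In chaperone and yolk protein genes they made up 0.0672% and 0.515%, beside 0.574% of all coding positions.

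Large lists with little GC-rich coding sequence had almost none. These lists were drawn up by gene name, so genes whose product carries the same domain under another name are not in them. No summit was found in coding exons of 1364 listed chemoreceptor genes (upper limit 0.270% of genes), 412 F-box, MATH and BTB genes (0.891%), 269 nuclear receptor genes (1.36%) or 63 homeobox genes (5.69%), and 0.0331%, 0.0360%, 0.155% and 0.160% of their coding positions had 60% GC or more. The lists of 16 tubulin, 12 intermediate filament, 32 tRNA synthetase and 31 major sperm protein genes also had 0 summits (upper limits 20.6%, 26.5%, 10.9% and 11.2%). For these lists and the homeobox genes the upper limit is above the 2.09% of all genes, so 0 does not show a lower share. In all, 13 of the 36 lists had none. Some of the lists without a summit were not GC-poor. Beside 0.574% of all coding positions, 0.657% of those in 19 matrix and attachment genes had 60% GC or more. The share was 0.721% in 19 Argonautes and 0.619% in 12 cadherins. For the matrix and attachment, Argonaute and cadherin lists the upper limits were 17.6%, 17.6% and 26.5% of genes. These limits are also above the 2.09% of all genes. Such small lists therefore cannot show whether GC-rich genes lacked summits more often than other genes. Outside the lists, products with related names did have summits, singled out after their values were seen. F13A7.1 (415), C35E7.9 (192) and K08E3.2 (85.3) have the RefSeq product name major sperm protein, pqn-87 (203) and Y54F10AM.11 (182) have a MATH and a BTB domain product, lin-23 (96.8) has an F-box product and zfh-2 (179.8) is a zinc finger and homeobox gene. Among 240 C-type lectins 1 had a summit, clec-122 at its alanine repeat (121.9, with 87.2 and 38.8).

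**Figure D4:**
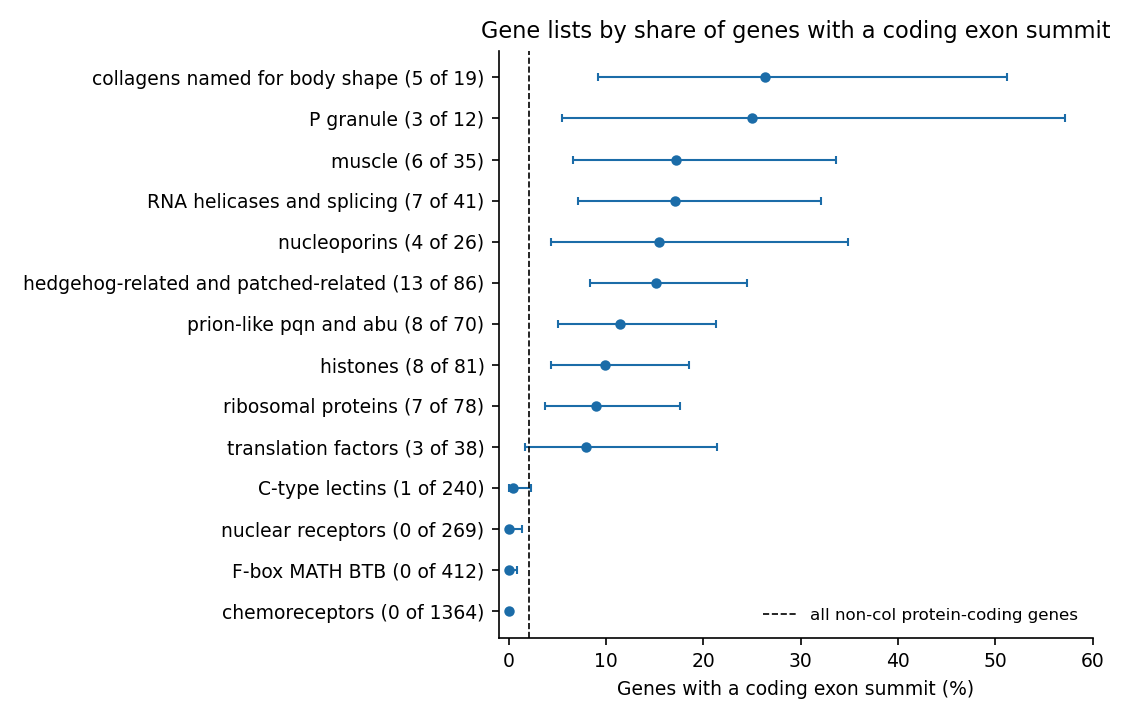
Share of genes with a coding exon summit in each list with at least 3 such genes or at least 200 genes in all, with exact 95% intervals and the counts in parentheses. The dashed line is the 2.09% of all protein-coding genes outside the col family, and the large lists at the bottom lie below it.

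Some small families, chosen after their values were seen, had a summit in most or all of their genes. All 4 sperm-specific class Q genes did, with signals up to 269 in ssq-2, and so did the 3 sperm chromatin genes spch-1, spch-2 and spch-3, with 224, 226 and 269. Their encoded arginine and serine alternation is visible in the spch-1 sequence. Of 31 genes for intrinsically disordered proteins of the idp classes, 9 had a summit. Of these, idpc-3, idpc-4, idpc-5, idpc-6 and idpc-7 lie within a stretch of chromosome V, with summits between positions 9618600 and 9628817 and signals of 240, 400, 202, 265 and 403. F47B8.13, F47B8.14 and F47B8.18 lie close together on the same chromosome, with strongest signals of 553, 850 and 1331. Of 27 genes whose product is a histone lysine methyltransferase or demethylase, 5 had one, and they held 14 summits: set-26, its paralog set-9, jmjd-2, dot-1.1 and dpy-21, with strongest signals of 374, 248, 329, 215 and 177.

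The 15 genes with 3 or more summits held 56. Summits of a gene need not be separate sites, since 34 coding exon summits shared a peak interval with another. Summits in different intervals could also share a replicate region, as did a pair in set-26 with 83.1 in replicate 1 at both. epic-2 had 6 in 1 interval of its last exon, all at alanine-led codon windows, with signals between 36.8 and 831, and 2 or 3 copies of the 51 bases at 3 of them. sea-2, a zinc finger gene of sex determination, had 5 across 3 exons with signals between 10.5 and 258, and set-26, which encodes a PHD and SET domain protein, had 5 across 3 exons with signals between 24.5 and 374. Their leading residues changed along the gene, with lysine, glutamate, glutamine and alanine in set-26 and alanine, serine, glutamine and proline in sea-2. clx-1, ego-2, pqn-41 and Y54G11A.14 had 4 each. In clx-1, which RefSeq names basic proline-rich protein-like, each summit was led by proline. H05C05.1, dot-1.1, eel-1, grl-25, hip-1, hrpu-1, lin-40 and rsr-1 had 3 each. In eel-1, a HECT ubiquitin ligase gene with 12.6 kb of coding sequence, the 3 summits lay in 3 exons, all led by alanine, with signals of 187, 145 and 120. In lin-40, an MTA-like subunit of a nucleosome remodelling complex, the 3 lay in 1 exon of 2018 bp with 285, 141 and 99.7.

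Summits lay in long exons and away from exon ends. The coding part of the exon had a median length of 498 bp (468 to 531), against 249 bp at coding positions and 330 bp at GC-weighted positions outside peaks. The median distance to the nearer exon end was 159 bp (149 to 170), against 55 and 89 bp. The coding sequence had a median of 5 coding exons, against 7. The last coding exon held 124 summits (24.3%, 20.6 to 28.2) and 15.1% of coding positions, single-exon coding sequences held 28 (5.48%, 3.67 to 7.82) and 0.958%, the first coding exon 56 (11.0%) and 11.1%, and internal exons 303 (59.3%) and 72.8%. In GC-weighted positions these shares were 20.7%, 2.61%, 14.3% and 62.4%. Along the coding sequence the median place was 54.3% of the way (51.2 to 57.5). With the coding sequence cut into 10 equal parts, the first part held 6.85% of summits, against 10.3% of coding positions, and part 8 held 13.3%, against 9.97%. A promoter window, which began 1000 bp before and ended 200 bp after a protein-coding transcript start, covered 131 summits (25.6%, 21.9 to 29.7), against 23.0% of coding positions and 26.5% of GC-weighted ones. The median signal was 137 for these 131 and 153 for the other 380.

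Coding exon summits were about as strong as other nuclear peaks, with a higher ratio of replicate 1 to replicate 2 signal. Their median signal was 148 (137 to 158, range 10.1 to 1655), against 137 (131 to 143) at 1683 other nuclear summits and 255 at 134 summits inside col genes. In the list of replicate 1, a peak overlapped 460 of them (90.02%, 87.1 to 92.5), beside 84% of all nuclear conservative peaks. In the list of replicate 2, a peak overlapped 219 (42.9%, 38.5 to 47.3), beside 59.1%. Both lists held 211, replicate 1 alone 249, replicate 2 alone 8, and 43 were in neither. Of all 2194 nuclear peaks these numbers were 1139, 703, 157 and 195. At 476 summits with a signal in both replicates' ranked lists the median was 115.2 in replicate 1 and 46.2 in replicate 2. The signals of different lists may not share a scale, so the ratio is read against other peaks. Its median on the log2 scale was 1.21 (1.12 to 1.28), which is 2.31-fold, against 0.51 (0.46 to 0.57), or 1.42-fold, at other nuclear summits, 0.31 at noncoding promoter summits and 1.56 inside col genes. Replicate 1 was higher at 452 of the 476, beside 1192 of 1594 other nuclear summits with both signals.

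The replicate ratio and the signal both moved with GC content. The median signal was 92.4 at 50 to 55% GC, 112 at 55 to 60%, 160 at 60 to 65%, 268 at 65 to 70% and 467 at 70% or more, and the median log2 ratio of replicate 1 to replicate 2 in those bins was 0.44, 1.04, 1.29, 1.64 and 1.75. The share overlapped by the replicate 2 list was 30%, 23.9%, 44.9%, 67.05% and 85.7%. Low-complexity summits had a median signal of 173 (156 to 188) and 53.5% were in the replicate 2 list, while the other 199 had 122.3 (113 to 131) and 26.1%, with median GC contents of 62.4% and 59.4%. The part of GC content, low complexity or library preparation in the difference between replicates was not tested.

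**Figure D5:**
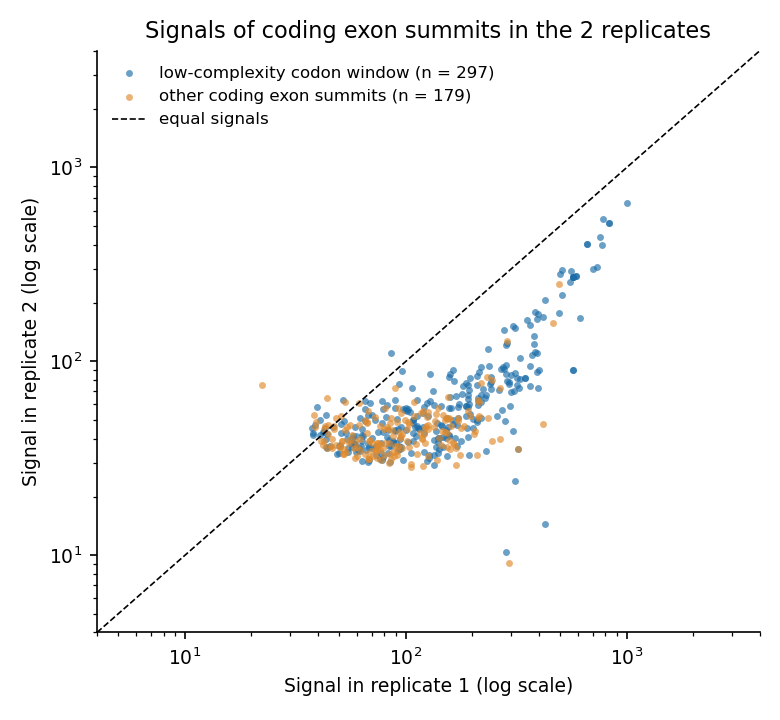
Signal of 476 coding exon summits in replicate 1 (horizontal, log scale) and replicate 2 (vertical, log scale), from the authors' ranked lists, with low-complexity codon windows in blue and others in orange. Of these, 452 lie below the dashed line of equal signals, and the strongest, in grl-25, is at 1004 and 657. Among other nuclear summits, not drawn, replicate 1 was higher at 1192 of 1594.

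A replicate's signal was read from its strongest region over the summit, so summits that share a region share the value. This bears on the extremes of the ratio. The highest log2 ratios, 5.00 in rol-1, 4.87 in pqn-75 and 4.78 in rsr-1, were at secondary summits of the conservative list with signals of 74.3, 42.02 and 31.9, at which replicate 1 had 292, 425 and 285 from a region that also covers a stronger summit of the gene. The lowest was -1.76 in Y54G11A.14, also a weak summit (24.8) that shared its replicate 2 region with a stronger one, followed by pqn-32 at -0.56 (39.6 in replicate 1 and 58.4 in replicate 2) and R08C7.11 at -0.56 (44.2 and 64.9). pqn-32 was led by glutamine and had 51.5% GC.

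Among chromosomes, IV held the most summits, 108, and X the fewest, 39. Per Mb of coding sequence outside col genes X had 11.1, and the autosomes 16.9 (V) to 27.6 (IV). X also had the lowest share of coding positions at 60% GC or more, 0.359%, against 0.471% on V and 0.649 to 0.666% on the other autosomes.

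Mitochondrial DNA is a small circle in many copies per cell and is not packed with nuclear chromatin. The 21 mitochondrial summits were among 24 mitochondrial peaks, lay in 11 of its 12 protein-coding genes and had a median signal of 371 (13.6 to 2935). COX3, cytochrome c oxidase subunit 3, had summits of 743 and 245, and ND1, a subunit of respiratory complex I, had 347. The list of replicate 2 overlapped all 21 and that of replicate 1 overlapped 17. At the strongest, replicate 1 had 963 and replicate 2 had 1998, and COX3 had 241 and 432 at its stronger summit, so at these replicate 2 was the higher one. It was the other way round at ND1, with 253 and 178, and at the summit at position 8948, with 350 and 300.7. Replicate 1 was also higher at the second COX3 summit (241 and 73.3) and at position 3828 (82.01 and 69.3). There its values were those of the stronger COX3 summit and of position 3616, where replicate 2 had 432 and 427. These 2 cases are therefore not separate differences between the replicates.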

How the data were processed

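ChIP-seq peak lists of 2 replicates on ce11 were used as deposited by the authors. Aligner and peak caller: not given in the sources used here. The control library named in the labels was not used here. The signal per peak is the authors' deposited value. The deposited −log10 values are of a q-value and of the irreproducible discovery rate (IDR). The deposited score, at most 1000, is at least 830 in the thresholded lists. The conservative list was used throughout unless another is named. Replicate overlap was 1 bp or more with each replicate's own thresholded list, and replicate signals came from its ranked list.

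Summits were placed on the WBcel235 genome with the Ensembl release 115 annotation, in the transcript with the longest coding sequence, and product names came from RefSeq. Codons were translated from that annotation, in place of the RefSeq protein table that had been planned. The repeat and placement search was tested on simulated data. Coding positions outside peaks were weighted to the GC content of the summits within 50 bp, in bins of 2.5 percentage points. Of the summits, 2 lay in bins with no such position. Sequences are from the reference genome; those on chromosome I are not shown. No test was made, since there is 1 group, and with 2 replicates the difference between them is the measure of their spread.

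The summits, the lists and the alternatives were chosen with earlier results of these data known. Genes were named by rule: those of the 15 strongest summits, of 3 or more summits, the strongest 2 of each list, the strongest 5 of each sequence feature, and the 3 highest and lowest replicate ratios. Others were named after their values were seen. Python 3.11.15, numpy 2.4.6, pandas 2.3.3 and scipy 1.17.1 were used.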

Additional observations from a re-analysis of the deposited data

How the results depend on the processing

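The larger deposited list gave 838 nuclear coding exon summits (25.8% of nuclear peaks, median signal 113, low complexity 51.4%, 86.0% and 28.2% in the lists of replicates 1 and 2, median log2 ratio 1.32). An IDR under 0.001 left 229, with a median signal of 247, GC content 63.4%, low complexity 74.2%, 99.6% and 80.3% in the replicate lists, ratio 1.49, 20.5% in promoter windows and 31 genes in a family list, against 80, none of them a P granule gene. Peaks above the median signal left 275, with 63.4% GC, 72.4% low complexity, 99.6% and 65.5% in the lists, ratio 1.58 and 43 list genes. The family lists held 3670 genes together, so the 80 with a summit were near the share of all genes, 414 of 19815. Genes with a summit, listed or not, numbered 195 at an IDR under 0.001 and 242 above the median signal. Outside promoter windows, summits were 17.3% of nuclear peaks, 3.95% lay in the first coding exon and 2.89% in single-exon sequences. They fell in 51 list genes and 307 genes in all.

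Leaving out a replicate, by using the other one's own list, gave counts of 234 to 836 and shares of 16.3 to 29.3%. Low complexity was then 49.3 to 68.8% and GC content 60.4 to 62.4%. There were 35 to 120 list genes, beside 198 to 647 genes in all. Without replicate 2, 26.2% were in the replicate 2 list, and without replicate 1, 89.3% were in the replicate 1 list. The log2 ratios were 1.26 to 1.48. Overlap of 50% of the interval gave 85.1% and 38.2% in the replicate lists, any coding transcript gave 21.7% in a first exon, an entropy limit of 2.5 bits gave 33.1% low complexity, and GC within 100 bp had a median of 58.7%. A pair of alternatives was chosen after seeing the data. Keeping the strongest summit of each gene gave a median signal of 159 and 18.9% of nuclear peaks, and keeping summits whose 51 bases occur once left 499. Of all the recomputed main values, 73 stayed within the spread used for each and 44 moved beyond it. A reversal was possible only for the log2 ratio, which stayed positive, since the other values have no sign. Of the recomputed gene counts of single lists, 57 stayed and 33 moved. No paired analysis was possible because there is 1 group and no contrast. Depth is unknown, so no floor can be set on undetected summits.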
